A study of Homo sapiens with 12 samples.

Results

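The genes described here are the cyclins, the cyclin-dependent kinases (CDKs), the CDK inhibitors, the CDC25 phosphatases, the E2F transcription factors and the proteins named as their partners. They were taken by symbol from the annotation of the array's features, as every symbol that starts with CCN and a letter, CDK and a digit, CDKN, E2F and a digit, or CDC25, apart from 1 gene that is not reported here. This gave 74 of the 18334 genes with a symbol of their own, on 194 features, where a feature is a printed spot of a gene's probe. All 74 Entrez identifiers were found in RefSeq under the same symbol. Of these genes, 50 had a measured value and 24 had none.

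MiaPaCa-2 cells, an established line grown from a human carcinoma of the pancreas, were exposed to a methanol solution of leaf extract (LE) of Achyranthes aspera at 34 μg/mL, and control cells to 2% methanol alone, the solvent that both groups shared. RNA of LE-treated cells and RNA of control cells were labelled with 2 dyes and hybridised to the same whole genome array, 6 times for 24 h of exposure, 4 times for 48 h and 2 times for 72 h. LE RNA carried Cy5 on 3, 2 and 1 of these arrays and Cy3 on the others. The values are log2 ratios per feature, and a log2 ratio of 1 is a doubling of the signal. The design text calls the replicates biological while the methods describe cultures in duplicate, and no label ties an array to a culture, so that the p-values measure the spread between arrays, which may be technical.

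The labels name the dye carried by both RNAs but not which RNA stands in the numerator. On every array the ratio was taken as deposited to be LE over control, which is the likely direction. Of 941 fold changes listed by the study at the last time point, 419 recurred among averages of the ratios as deposited. Among averages turned by dye 76 recurred, so that many were found in neither reading. That does not settle whether each array had been turned to LE over control. Each main result is therefore given a second time with the sign changed on the arrays where LE RNA carried Cy3, called turned by the dye labels.

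Cyclins are the regulatory subunits of CDKs, and the cell cycle advances as one pair after another becomes active. D cyclins with CDK4 and CDK6 start the phosphorylation of the retinoblastoma protein in G1, which releases E2F factors to transcribe the genes of DNA synthesis. Cyclins E and A with CDK2 carry the cell through S phase, and cyclin B with CDK1, switched on by CDC25 phosphatases, drives entry into mitosis. INK4 inhibitors such as CDKN2D block CDK4 and CDK6, while p21 (CDKN1A), p27 (CDKN1B) and p57 (CDKN1C) bind several cyclin-CDK pairs. A further group of cyclins and CDKs, among them CCNC, CDK8 and CDK9, acts mainly in transcription by RNA polymerase II. A ratio between RNA pools of whole cultures cannot tell apart a change in the share of cells in a phase from a change in RNA per cell.

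A feature had a value only where the spot passed the authors' quality criteria on all 12 arrays, and the others were blank on all. Of the 194 features, 138 had a value, a share of 71.1% with a Wilson 95% interval of 64.4% to 77.1%, which covers counting error only. Over all features with 1 symbol the share was 42.9%. The criteria cover brightness above background, saturation, spot size, evenness of the pixel ratios and opposite change at dye swap, so a blank is not a level of 0. The share was 82.1% for the CDK inhibitors, 81.8% for the E2F factors, 80.8% for the S phase kinases, 73.7% for the mitotic kinases and 70.0% both for the D cyclin kinases and for the kinases of transcription. It was 85.7% for the binding partners and 33.3% for the other cyclins and CDKs, a group that holds CCNG1, CCNG2 and CDK14, all of them blank. Much of the high share came from 8 genes printed at least 8 times, CCNA2, CCND1, CDK1, CDK2, CDK9, CDKN1A, CDKN1B and E2F1, for which 82 of 87 features (94.3%) had a value, against 67.9% over all genes printed as often. For the genes with fewer features the share was 52.3%, against 40.6% over all such genes.

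**Figure D1:**
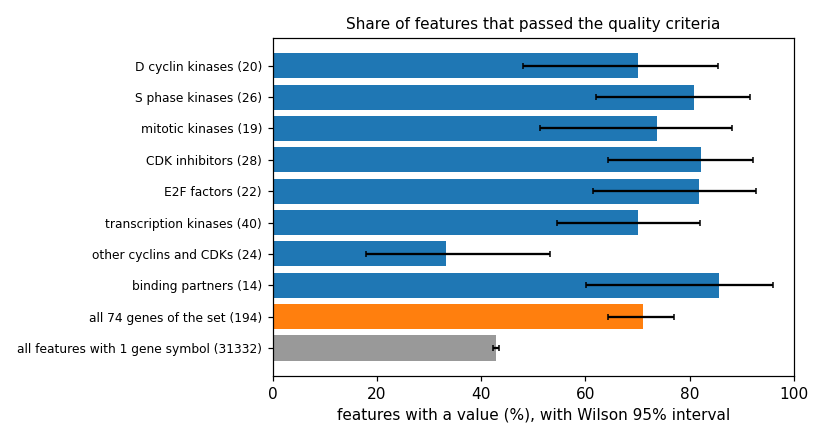
Share of features with a value on all 12 arrays, in percent, for each role group, for all 74 genes and for all features with 1 gene symbol. Numbers in parentheses are features, bars start at 0, and lines are Wilson 95% intervals. The other cyclins and CDKs stand at 33.3%, below every other role group.

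Blank genes of the cycle itself were CCND2, a D cyclin, CCNE2, CCNA1, CDK3 and CDC25A of the S phase group, CCNB3 and CCNF of the mitotic group, the INK4 inhibitor CDKN2B and the E2F factor E2F8. No statement on these genes is possible from the arrays. Of the 50 measured genes, 31 rested on a single feature. As to the cells themselves, the files hold ratios and no levels. The epithelial markers KRT8, KRT18 and KRT19 and the mesenchymal marker VIM had values, EPCAM was blank, and the markers of acinar and islet cells, blood and vessels that the array carries were blank. COL1A1, the fibroblast collagen, had values on 10 of 10 features, while DCN was blank.

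The 8 genes printed many times show how far a gene's value can be read. Features that carry the same gene name and the same accession should give the same ratio, and here they did not. CCND1, cyclin D1, had 11 features with means of the 3 times from -0.72 to 0.22, of which 4 lay above 0 and 7 below. The 10 features of CDKN1A ran from -0.70 to 0.43, and those of CDK2 from -0.62 to 0.28. The SD between the features of 1 gene was 0.22 to 0.35, against 0.29 over all 17134 measured features. Thus features of 1 gene differed about as much as features of any genes. The intraclass correlation between features of a gene, which is 1 where copies agree and 0 where they share nothing, had a median of 0.01 over the 12 arrays and ranged from -0.06 to 0.11. Over all accessions with at least 8 measured features it ranged from -0.02 to 0.01, so that this was not particular to cell cycle genes. Between arrays of the same dye the same features correlated with a median r of 0.32 where LE RNA was on Cy5 and 0.19 where it was on Cy3, across features, which are not independent replicates. Between arrays of opposite dye the median r was -0.03, from -0.34 to 0.26, so that features did not agree across the dye swap.

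**Figure D2:**
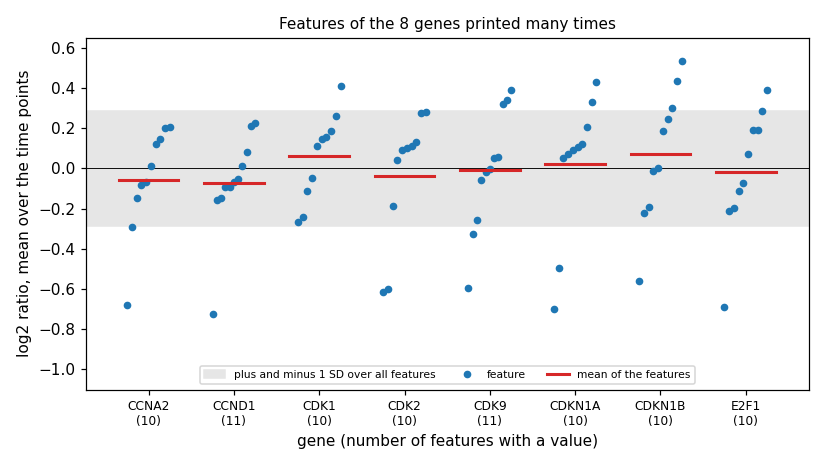
Log2 ratio (LE over control as deposited, mean over the 3 time points) of each feature of the 8 genes printed at least 8 times. Points are features, red lines are gene means, and the grey band is plus and minus 1 SD over all 17134 features. The features of each gene spread across the band while their means lie between -0.07 and 0.07.

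Every value below is therefore that of the features that carry a gene's name in the annotation. Whether the rows of the table match the annotated features could not be checked from the values, and the gene names below hold only if they do. A mean near 0 over many features that disagree does not show that the transcript was unchanged, and a value on a single feature has no second feature beside it. The gene value used is the mean of all its features with a value.

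No gene of the set passed the threshold. At an adjusted p of 0.01, limma's moderated test called 0 of the 50 at 24 h, 0 at 48 h and 0 at 72 h, where it called 0.0% of all 8828 genes at each time. In the mean of the 3 times it called 0 of the 50, against 0.0793% of all genes, and the moderated F test and the differences between time points called 0 of them and 0.0% of all genes. None of the 138 features passed it in the mean of the 3 times, against 0.0525% of all features. At an unadjusted p under 0.05, 1 of the 50 genes was past the threshold at 24 h (2%, against 6.09% of all genes), 3 at 48 h (6%, against 8.88%), 4 at 72 h (8%, against 8.94%) and 6 in the mean of the 3 times (12%, against 15.7%). In the F test 3 were (6%, against 9.63%), 1 in the difference between 48 and 24 h (2%, against 4.75%), and 0 in the differences of 72 h from 24 h and from 48 h (against 4.11% and 3.99%). After turning by dye, 8 genes were past it at 24 h (16%, against 9.69% of all genes), 4 at 48 h (8%, against 12.7%), 1 at 72 h (2%, against 5.17%), 9 in the mean of the 3 times (18%, against 20.5%) and 6 in the F test (12%, against 12.2%). The shares were near or below those of all genes, except that at 24 h when turned, where 7 of the 8 were lower. With so few arrays and such spread, the test leaves room for changes of the size described below.

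The median of the mean log2 ratio over the 50 genes was -0.01, with 23 above 0 and 27 below, beside a median of 0.02 over all genes. Turned by the dye labels, 25 lay above 0 and 25 below. Of the 50 genes, 23 had the same sign of the mean at 24, 48 and 72 h (46%, against 41.0% of all genes), 10 of them above 0 and 13 below. When turned, 26 had the same sign (52%, against 52.2%). No gene lay on one side of 0 on all 12 arrays as deposited, against 0.419% of all genes, while turned by the dye labels 3 did (6%, against 2.1%), CCNC, CDK2AP2 and CCNL2, all below. By role the median was 0.09 for the D cyclin kinases, -0.06 for the S phase kinases, 0.06 for the mitotic kinases, 0.02 for the CDK inhibitors, -0.02 for the E2F factors, 0.02 for the kinases of transcription, 0.09 for the other cyclins and CDKs and -0.07 for the binding partners. In the same order, the medians turned by the dye labels were 0.07, -0.03, -0.08, 0.09, 0.09, 0.05, -0.07 and -0.04, so that 3 changed sign. The medians of the groups differed by less than the values of the genes within a group.

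**Figure D3:**
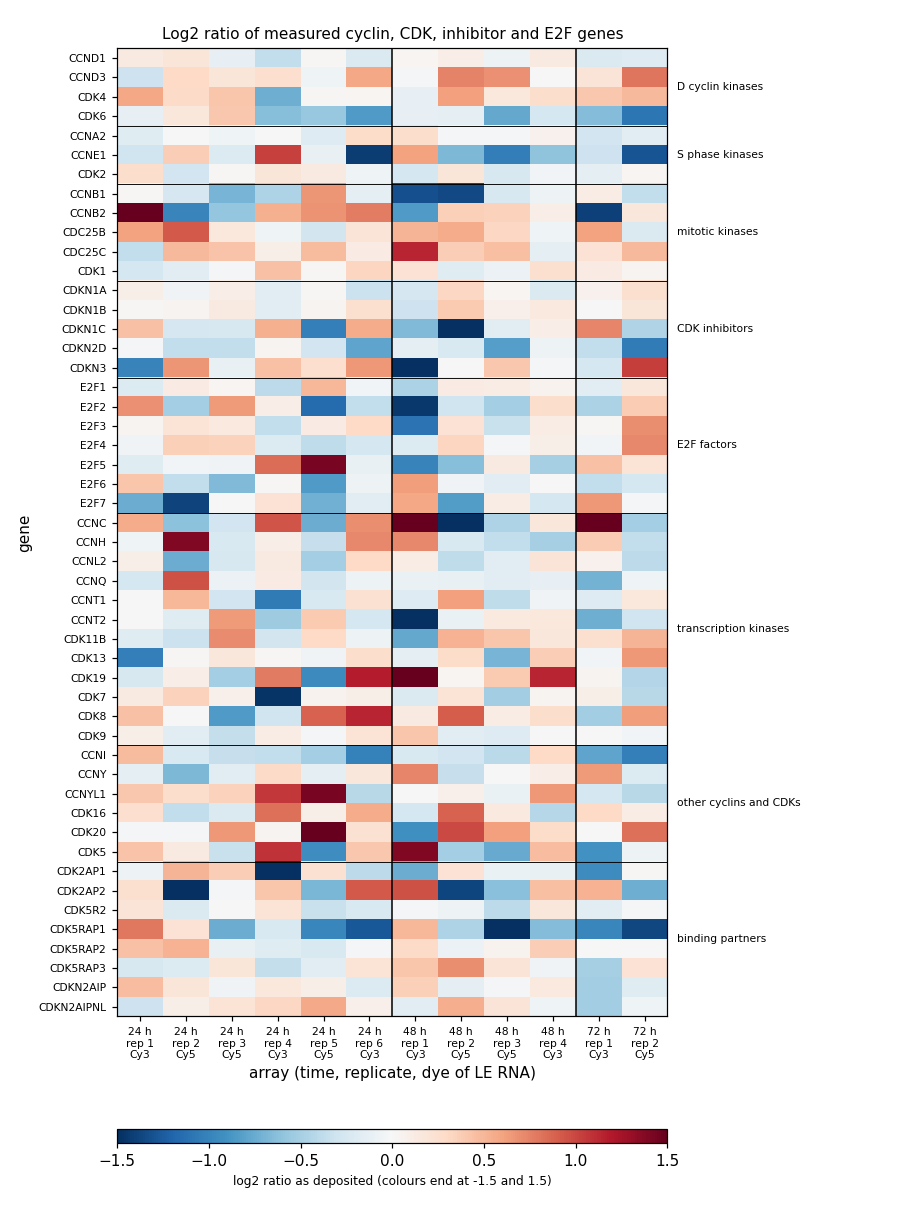
Log2 ratio of LE over control as deposited for the 50 measured genes (rows, by role group) on the 12 arrays (columns, by time, replicate and dye of LE RNA). Red is above 0, blue below, and colours end at -1.5 and 1.5. No row keeps one colour across all 12 arrays, and CCNC and CDK2AP2 change colour with the dye.

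Among the kinases of G1, CDK6 had the lowest ratios and CCND3 and CDK4 lay above 0. CDK6, which pairs with D cyclins, had log2 ratios from -0.85 to 0.40 at 24 h with a median of -0.34. At 48 h the arrays gave -0.12, -0.14, -0.76 and -0.27, and at 72 h -0.65 and -1.08. All 6 later arrays thus lay below 0, while the 24 h arrays lay on both sides. The mean of the 3 times was -0.49 with an SE of 0.14, a ratio of 0.714, and an adjusted p of 0.103. Turned by the dye labels the mean was -0.03.

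CCND3, cyclin D3, had ratios of -0.31 to 0.58 at 24 h with a median of 0.21, then -0.02, 0.75, 0.68 and 0.01 at 48 h and 0.20 and 0.81 at 72 h. At 48 h its high values were those of both Cy5 arrays and its low values those of both Cy3 arrays. Its mean was 0.34 (SE 0.13, adjusted p = 0.212), and 0.22 when turned. CDK4, the other partner of D cyclins, gave means of 0.10 ± 0.46 (SD, n = 6) at 24 h, 0.23 ± 0.30 (SD, n = 4) at 48 h and 0.45 ± 0.06 (SD, n = 2) at 72 h, with a mean of 0.26 (SE 0.13, adjusted p = 0.373) and 0.11 when turned. CCND1, the mean of 11 features, lay at -0.06 ± 0.21, 0.05 ± 0.09 and -0.20 ± 0.01 at these times. Both kinases of the group, CDK4 and CDK6, thus lay on opposite sides of 0 as deposited, without either passing the test.

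In the S phase group all 3 measured genes had a mean below 0. Cyclin E1, CCNE1, which activates CDK2 at the start of S phase, ranged from -1.42 to 1.03 at 24 h with a median of -0.16, lay at 0.60, -0.68, -1.04 and -0.60 at 48 h, and at -0.31 and -1.29 at 72 h. The ratio was below 0 on 5 of the 6 later arrays, but the spread at 24 h covered the whole of the later range. Its mean was -0.45 (SE 0.22, adjusted p = 0.343), and -0.26 when turned. Cyclin A2, CCNA2, with 10 features, lay between -0.28 and 0.28 on every array, with a mean of -0.06 (SE 0.09). For CDK2 the mean of 10 features was -0.04 (SE 0.10). One of these features was the only one of the 138 past an adjusted p of 0.05 in the mean of the 3 times (1 of 138, against 1.24% of all features). It was named after its values were seen, and had a mean of -0.62 (SE 0.14, adjusted p = 0.0476), below 0 on 11 of 12 arrays, where 7 of the 10 CDK2 features had a mean above 0. Turned by the dye labels its mean was 0.16.

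**Figure D4:**
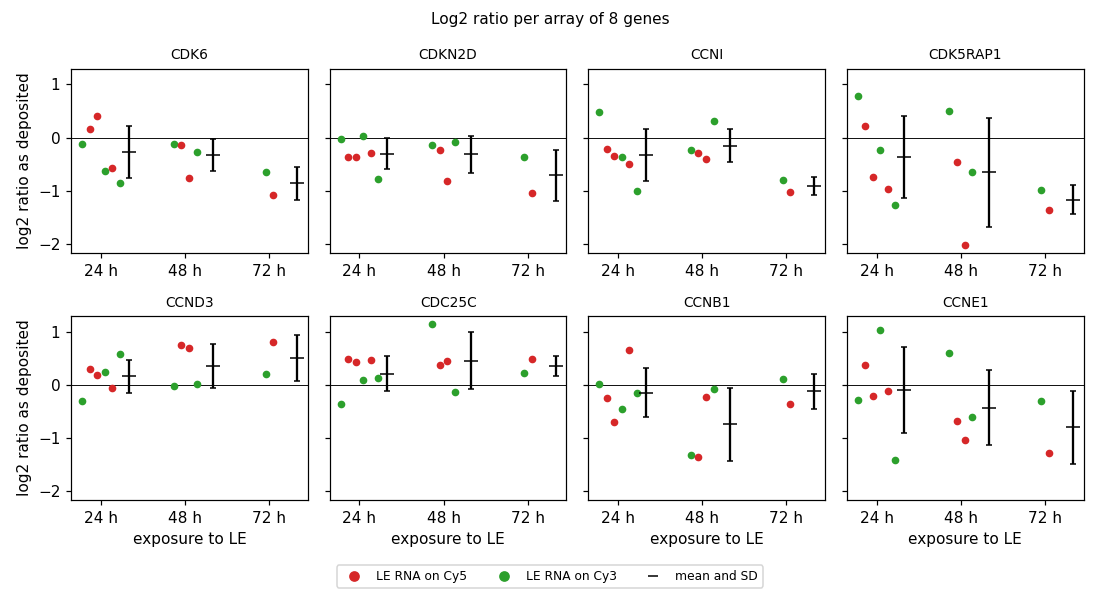
Log2 ratio of LE over control as deposited for 8 genes on every array at 24, 48 and 72 h. Points are arrays, red with LE RNA on Cy5 and green on Cy3, and black marks are means with SD. CDK6 and CDKN2D lie below 0 on all arrays at 48 and 72 h, and CCNB1 lies lowest at 48 h.

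The mitotic group was split. CCNB1, cyclin B1, had ratios of -0.70 to 0.66 at 24 h with a median of -0.20. At 48 h they were -1.32, -1.36, -0.24 and -0.07, all below 0, and at 72 h 0.11 and -0.37. The 48 h mean of -0.75 (SE 0.26) had an adjusted p of 0.388 and was -0.05 when turned. The CCNB1 mean of the 3 times went from -0.34 to -0.08 when turned. The low 48 h values came from 2 of the 4 arrays, of opposite dye. CDC25C, the phosphatase that activates CDK1 at entry into mitosis, was above 0 on 10 of 12 arrays. It ranged from -0.37 to 0.48 at 24 h with a median of 0.28, and lay at 1.14, 0.37, 0.46 and -0.14 at 48 h and 0.21 and 0.48 at 72 h. The mean was 0.34 (SE 0.13, adjusted p = 0.240), and 0.12 when turned. CDC25B, a related phosphatase, had means of 0.26, 0.33 and 0.19 at the 3 times, but -0.10 when turned. CDK1 itself had a mean of 0.06 (SE 0.11) over 10 features. Cyclin B2, CCNB2, spread from -1.40 to 1.86 over the arrays, the widest range of the group, with a mean of -0.09 (SE 0.25).

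Of the CDK inhibitors, CDKN2D, the INK4 protein p19, was the lowest as deposited, and CDKN1C when turned. Its 24 h ratios ran from -0.79 to 0.04 with a median of -0.33, those at 48 h were -0.13, -0.23, -0.82 and -0.08, and those at 72 h -0.37 and -1.05. It lay below 0 on 11 of 12 arrays. With a mean of -0.44 (SE 0.12), a ratio of 0.736, it had the smallest adjusted p of the 50 genes, 0.0945, and turned by the dye labels its mean was -0.20. CDKN2D and CDK6, a kinase that it blocks, were thus both lower as deposited. Their means at 24, 48 and 72 h were -0.30, -0.32 and -0.71 for CDKN2D and -0.27, -0.32 and -0.86 for CDK6. CDK4, which INK4 proteins also block, lay above 0 at these times, at 0.10, 0.23 and 0.45. All of these rest on a single feature each, and the CDK6 mean was -0.03 when turned.

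For p21, CDKN1A, the classical target of p53, the means of its 10 features were -0.05 ± 0.16 (SD, n = 6), -0.03 ± 0.26 (SD, n = 4) and 0.15 ± 0.12 (SD, n = 2). A single feature of CDKN1A, named after its values were seen, was below 0 on all 12 arrays with a mean of -0.70 (1 of 138 features, 0.725%, against 0.414% of all features), while 8 of the 10 had a mean above 0. For p27, CDKN1B, the means were 0.05 ± 0.13, 0.07 ± 0.29 and 0.09 ± 0.13. CDKN1C, p57, had a 48 h mean of -0.76, with -2.32 on replicate 2, and a mean of the 3 times of -0.21 (SE 0.23). With ratios turned, that mean was -0.52 (adjusted p = 0.191). CDKN3, a phosphatase that acts on CDKs, had a mean of 0.06 (SE 0.22), with -1.78 on 48 h replicate 1 and 1.04 on 72 h replicate 2, and 0.44 when turned.

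The 7 measured E2F factors had means of -0.22 to 0.12. E2F1, an activator of S phase genes, lay at -0.00 ± 0.30 (SD, n = 6), -0.05 ± 0.28 (SD, n = 4) and 0.00 ± 0.23 (SD, n = 2) over 10 features. E2F2, a second activator, had a mean of -0.22 (SE 0.20), and E2F3, the third, one of 0.05 (SE 0.14). Among the E2Fs that repress, E2F4 had a mean of 0.12 (SE 0.12), E2F5 of 0.04 (SE 0.17), E2F6 of -0.16 (SE 0.14) and E2F7 of -0.09 (SE 0.17). Turned by the dye labels, the means of E2F1 to E2F7, in order, were 0.18, 0.09, 0.21, 0.21, 0.09, -0.18 and -0.28. The E2F1 mean near 0 as deposited combined Cy5 arrays averaging 0.17 with Cy3 arrays averaging -0.21. E2F5 was the only gene of the set past an unadjusted p under 0.05 in a difference between time points (48 h minus 24 h). At 24 h its ratios were -0.19, -0.05, -0.05, 0.84, 1.43 and -0.12, at 48 h -1.003, -0.63, 0.14 and -0.50, and at 72 h 0.43 and 0.21. High values at 24 h were those of replicates 4 and 5, and the difference of -0.81 (SE 0.34) had an adjusted p of 0.995.

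E2F factors bind short motifs in the promoters of many genes of the cycle, including those of E2F1 and E2F2 themselves, and genes of G2 and mitosis often carry a CHR element. In the RefSeq promoters (GRCh38.p14, 250 bases before the start to 50 after), 66 of the 74 genes were matched. The letters TTTCGCGC or TTTGGCGC, on either strand, were found in 7 of them (10.6%), against 1.18% of all 27305 promoters. The letters TTTGAA, on either strand, were found in 9 (13.6%), against 15.4% of all. The motifs TTTGGCGC and TTTGAA begin alike, and CDK1 had both kinds. As examples, windows are shown for the activators E2F1 and E2F2 with the E2F letters and for CCNB2, CDK1 and CDKN3 with TTTGAA. Each holds the first match of its kind in the promoter, which begins 20, 42, 29, 161 and 170 bases before the start, in that order. As TTTGAA occurs in 15.4% of all promoters, a match alone does not show a CHR element. The windows run 5′ to 3′ along the gene, with the match in capitals.
E2F1, chr20:33686372-33686431, minus strand: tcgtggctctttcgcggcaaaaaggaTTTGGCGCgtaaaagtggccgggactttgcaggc
E2F2, chr1:23531242-23531301, minus strand: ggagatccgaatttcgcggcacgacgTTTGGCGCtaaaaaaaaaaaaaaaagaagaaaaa
CCNB2, chr15:59105091-59105148, plus strand: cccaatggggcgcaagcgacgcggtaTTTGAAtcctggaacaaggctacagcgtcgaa
CDK1, chr10:60778144-60778201, plus strand: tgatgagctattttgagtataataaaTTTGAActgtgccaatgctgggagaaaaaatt
CDKN3, chr14:54396811-54396868, plus strand, match on the other strand: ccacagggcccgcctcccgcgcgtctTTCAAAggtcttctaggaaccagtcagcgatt

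The measured genes with the E2F letters, CDK1, CDK11B, E2F1 and E2F2, had means of -0.22 to 0.16, 2 above 0 and 2 below, beside 20 above and 22 below for the 42 without them. When turned, 3 of the 4 lay above 0. Of the 7 measured genes with TTTGAA, 6 had a mean above 0 and 1 below, with a median of 0.06, beside 16 above and 23 below for the 39 without it. When turned, 3 of the 7 lay above 0 and 4 below, with a median of -0.06. A match in these windows is a description of letters and not of binding.

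The cyclins and CDKs of transcription had 12 measured genes, 6 above 0 and 6 below in the mean of the 3 times. CDK19, a kinase of the Mediator complex, was above 0 on all 4 arrays at 48 h with 2.39, 0.03, 0.39 and 1.14, its 2 highest values being those of the Cy3 arrays. Its 48 h mean of 0.99 had an adjusted p of 0.436 and was -0.78 when turned. The CDK19 mean of the 3 times went from 0.28 to -0.51 when turned. CDK8, its close relative, was also above 0 on the 4 arrays at 48 h, with 0.14, 0.91, 0.11 and 0.26, and was named after its values were seen. At 48 h, 6 of the 50 genes lay on one side of 0 on all 4 arrays (12%, against 14.0% of all genes), the others being CCNB1, CDK6, CDKN2D and CCNQ, the activator of CDK10, all below. Turned by the dye labels, 12 of the 50 did (24%), none of these 6 among them. The share of all genes in that reading is not given here. CCNT2, a partner of the elongation kinase CDK9, had a mean of -0.30 (SE 0.18) that became 0.30 when turned. CDK11B had a mean of 0.16 (SE 0.15), and its probes may also read the nearly identical CDK11A.

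CCNC, cyclin C, the partner of CDK8, and CDK2AP2, a binding partner of CDK2, followed the dye. With LE RNA on Cy5, CCNC was at -0.62, -0.29, -0.75, -2.04, -0.46 and -0.51, and with LE RNA on Cy3 at 0.56, 0.94, 0.69, 1.96, 0.16 and 1.65, so that the arrays of the 2 orientations did not overlap. CDK2AP2 was likewise below 0 on all 6 Cy5 arrays, with a mean of -0.91 ± 0.71 (SD, n = 6), and above 0 on all 6 Cy3 arrays, with a mean of 0.58 ± 0.29 (SD, n = 6). As deposited, these averaged to 0.19 (SE 0.32, adjusted p = 0.837) for CCNC and -0.15 (SE 0.28, adjusted p = 0.852) for CDK2AP2. Turned by the dye labels, CCNC had a mean of -0.96 (adjusted p = 0.0277) and CDK2AP2 of -0.73 (adjusted p = 0.0473), the only members past an adjusted p of 0.05 in that reading (4%, against 2.34% of all genes), and 0 of the 50 passed 0.01 (against 0.0113%). CCNL2, as the mean of 3 features, was below 0 on all 6 Cy5 arrays and above 0 on all 6 Cy3 arrays too. Turned by the dye labels, 1 of its features had a mean of 0.15 and the others -0.63 and -0.29. CCNY, CDK9 and CDKN1C were below 0 on all 6 Cy5 arrays and above 0 on 5 of the Cy3 arrays. E2F1 ran the other way, above 0 on all 6 Cy5 arrays and on 1 Cy3 array, as did CDK2AP1, above 0 on 5 Cy5 arrays and 0 Cy3 arrays. How many of all genes split nearly as far was not counted, so these splits are not shown to be particular to these genes. CCNC, CDK2AP2, CCNY and CCNL2 were named after their values were seen. A dye bias of the feature and a fall under LE with unturned ratios cannot be told apart here.

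**Figure D5:**
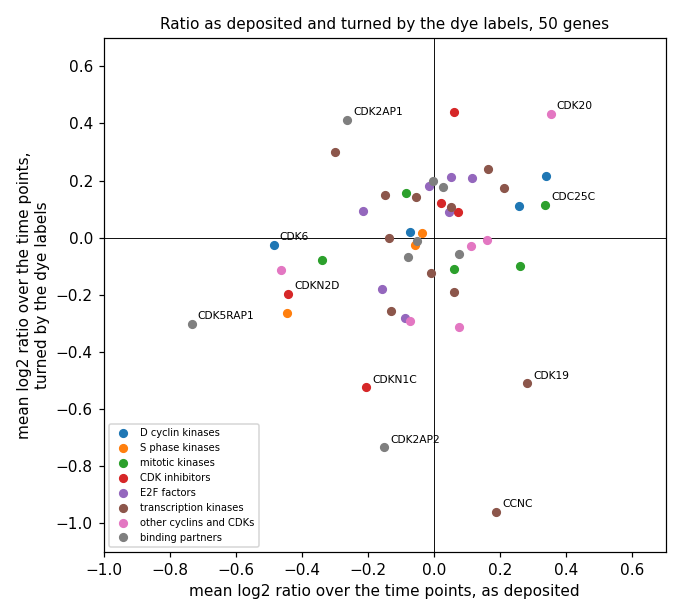
Mean log2 ratio over the time points of the 50 genes as deposited (x axis) and with the sign changed on the arrays with LE RNA on Cy3 (y axis), coloured by role group. CCNC and CDK2AP2 lie lowest on the y axis, at -0.96 and -0.73, while CDK5RAP1, CDK6 and CDKN2D are lower on the x axis than on the y axis.

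Of the other cyclins and CDKs, CCNI, an atypical cyclin, had ratios of -1.01 to 0.48 at 24 h with a median of -0.36, -0.23, -0.29, -0.41 and 0.30 at 48 h, and -0.79 and -1.02 at 72 h. It lay below 0 on 10 of 12 arrays, with a mean of -0.46 (SE 0.14, adjusted p = 0.111) and -0.11 when turned. CDK20 had a mean of 0.35 (SE 0.20, adjusted p = 0.422), and 0.43 when turned. CCNYL1, a relative of cyclin Y, had the only unadjusted p under 0.05 at 24 h as deposited. Its 24 h mean was 0.51 (adjusted p = 0.712), above 0 on 5 of 6 arrays, and 0.16 when turned. The gene value was below 0 on both arrays at 72 h, where its 2 features had means of -0.98 and 0.30. CDK16, a kinase of the PCTAIRE group, had a mean of 0.16 (SE 0.15), and -0.01 when turned.

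Among the binding partners, CDK5RAP1, named for binding a CDK5 activator and known as a tRNA-modifying enzyme, had the largest shift of the 50 genes as deposited. The 24 h ratios ran from -1.27 to 0.79 with a median of -0.49, and those at 48 h were 0.49, -0.46, -2.02 and -0.65. At 72 h they were -0.98 and -1.37, below 0 on both arrays. The mean was -0.73 (SE 0.23), a ratio of 0.601, with an adjusted p of 0.138, and -0.30 when turned. CDK2AP1, which binds CDK2, had a mean of -0.26 (SE 0.19) that became 0.41 when turned, while CDK5R2, a CDK5 activator, and CDK5RAP2, a centrosome protein, lay at -0.08 (SE 0.10) and 0.07 (SE 0.11).

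At 72 h, 25 of the 50 genes lay on one side of 0 on both arrays (50%, against 54.4% of all genes), 10 above and 15 below. The 72 h mean was below 0 for the 3 measured S phase genes and for the 8 binding partners, beside 4029 of all 8828 genes. Among these, the mean of CDK2 was -0.05 and that of CDK5RAP2 -3.1e-05, each with 1 array on either side of 0. Turned by the dye labels, the mean was above 0 for 2 of the 3 and 6 of the 8, beside 4339 of all 8828 genes. As deposited, the 10 genes above 0 on both arrays were CCND3, CDC25C, CDK1, CDK11B, CDK16, CDK20, CDK4, CDKN1A, E2F3 and E2F5. The methods list opposite change at dye swap as a criterion of a feature's quality, and the 72 h pair holds 1 array of each dye. Of the 138 features, 84 lay on the same side of 0 on both arrays as deposited (60.9%, against 54.1% of all features) and the others did not, so neither reading has the features all on one side.

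Genes that act around these, from 4 lists drawn up beside the set, gave 0 calls at an adjusted p of 0.01 in the mean of the 3 times, where 2 of 15, 4 of 17, 1 of 13 and 2 of 12 measured genes, in the order below, had an unadjusted p under 0.05, beside 15.7% of all genes at that threshold and 0.0793% at the former. Of the retinoblastoma family, E2F partners and regulators of CDK activity, 15 of 20 were measured, 8 above 0 and 7 below, among them BTRC, a ubiquitin ligase subunit, at 0.51 (adjusted p = 0.118) and 0.11 when turned, and CKS2, a CDK subunit, at 0.40 (adjusted p = 0.172) and 0.29 when turned. Of the E2F targets of DNA synthesis 17 of 25 were measured, 9 above 0 and 8 below. POLA1, the catalytic subunit of DNA polymerase alpha, stood at 0.55 (adjusted p = 0.0726) and 0.02 when turned, and RPA2, which coats single-stranded DNA, at -0.54 (adjusted p = 0.0876) and 0.03 when turned. These opposite values hold only as deposited. Of the 4 genes of this list with an unadjusted p under 0.05, 1 was higher and 3 were lower. Of the G2 and mitosis genes 13 of 25 were measured, 5 above 0 and 8 below, with KIF23, a kinesin of cytokinesis, at -0.84 (adjusted p = 0.132) and -0.73 when turned, and TPX2 at -0.24 (adjusted p = 0.370) and 0.01 when turned. Without 72 h replicate 2, KIF23 was at -0.45. Of the p53 targets of arrest 12 of 18 were measured, 8 above 0 and 4 below, with MDM2 at -0.29 (adjusted p = 0.318) and 0.31 when turned, and TP53INP1 at -0.61 (adjusted p = 0.261) and -0.15 when turned. The medians of these lists in the mean of the 3 times were 0.01, 0.03, -0.01 and 0.05, beside 0.02 over all genes.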

How the data were processed

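Per the labels and methods, amplified RNA of LE-treated and control MiaPaCa-2 cells was compared on 12 arrays of 2 dyes. The deposited log2 ratios were made by the authors in limma (version not given in the sources used here) with lowess and then quantile normalization, after image reading in GenePix Pro and quality control in Acuity. Array medians lay between -0.05 and 0.10. Of 43376 features in the table, 17134 (39.5%) had a value on all 12 arrays and 26242 on none. Of the measured features, 13436 had 1 gene symbol, 32 had several and 3666 had none. Signal and background levels were not used here, and the number of arrays limits the precision.

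Features with 1 symbol were averaged per array into 8828 genes. With lmFit and eBayes of limma 3.58.1 under R 4.3.3 (and statmod 1.5.0 for the block), each time point had its own term over the 12 arrays, which left 9 degrees of freedom for the residuals, beside a prior of 4.69 for genes and 6.20 for features. Contrasts gave the mean of the 3 times and each pairwise difference. Benjamini-Hochberg adjustment ran over all genes or all features, with a threshold of 0.01. Scripts were tested on simulated data. Python 3.11.15 served for tables (pandas 2.3.3, numpy 2.4.6), intervals (scipy 1.17.1), promoter matches and plots (matplotlib 3.10.9).

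The set, the 8 role groups, the 5 other lists and the tests were chosen with earlier results of these data known. Named genes are the measured members of the cell cycle groups, the 4 genes of each other group and the 2 of each list with the smallest p in the mean of the 3 times, and features on one side of 0 on all 12 arrays. CDK9 is named as a gene printed many times, and CCNC, CDK2AP2, CCNY, CCNL2, CDK8 and a CDK2 feature were named after their values were seen. The authors' own fold changes were read only to judge the direction of the ratios. The alternatives were ratios turned by the dye labels, arrays centred or scaled, a robust variance, a dye term, each time point alone, a block for the replicate number, an adjusted p of 0.05, features with several symbols counted, each array left out, and, chosen after seeing the data, the median of a gene's features. Some items are not reported here.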

Additional observations from a re-analysis of the deposited data

Results flagged for a closer look

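Among 96 groups of 4 to 6 arrays of a named gene, 5 held an array that stood far from the others, by the gap to its nearest neighbour as a share of the group's range, where chance flags about 1 in 20 groups. E2F1 was at -0.47 on 48 h replicate 1, with a gap of 0.883 of the range. CCNT2 was at -1.75 on the same array (gap 0.863), and BTRC at -0.022 there, below its other 48 h values (gap 0.843). CCNQ was at 0.96 on 24 h replicate 2 (gap 0.678). POLA1 was at 1.33 on 48 h replicate 3 (gap 0.836). The SD over features on 48 h replicate 1 was 0.985, the highest of the 12 arrays, where the others had 0.478 to 0.736. Its part in these values was not tested.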

How the results depend on the processing

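The counts of 0 genes past the threshold held under every alternative run, and the only count that moved was that of features averaged over the 3 times, from 0 to 1 at an adjusted p of 0.05. Each time point fitted alone gave the counts at 24, 48 and 72 h and was not run for the mean, the F test and single genes. The direction of 37 of the 48 named genes held in every leave-one-out fit, and of 21 in all alternatives. Turned by the dye labels, 19 changed sign. They became 0.16 for CCNB2, 0.020 for CCND1, -0.10 for CDC25B, -0.11 for CDK1, 0.018 for CDK2, 0.18 for E2F1, 0.092 for E2F2, 0.30 for CCNT2, -0.51 for CDK19, 0.15 for CCNQ, -0.0072 for CDK16, -0.028 for CCNYL1, 0.41 for CDK2AP1, -0.058 for CDK5RAP2, -0.96 for CCNC, -0.31 for CCNY, 0.030 for RPA2, 0.0052 for TPX2 and 0.31 for MDM2. The cause was not tested. With the median of a gene's features, chosen after seeing the data, CCNA2 was at 0.013 and CDK2 at 0.049, and with arrays centred on their median CDKN1A was at -0.0063. Leaving out 1 array at a time, the mean ranged from -0.35 to 0.18 for CCNB2, -0.016 to 0.050 for CDKN1A, -0.16 to 0.28 for CDKN3, -0.070 to 0.040 for E2F1, -0.062 to 0.16 for E2F3, -0.013 to 0.24 for E2F4, -0.030 to 0.10 for E2F5, -0.20 to 0.027 for E2F7, -0.17 to 0.55 for CCNC, -0.36 to 0.058 for CDK2AP2 and -0.064 to 0.22 for CCNY. Among means beyond 0.3 on either side that kept their sign, 3 moved by over 1.5 times, to between -0.61 and -0.28 for CCNE1, 0.22 and 0.49 for CDK20, and -1.24 and -0.45 for KIF23.

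With the replicate number as a block, 0 genes and 0 features passed the threshold, and E2F1 changed sign to 0.0016. The consensus correlation was 0.184. Correlations of deviations between arrays of the same number were not all over 0.1, from 0.0584 to 0.489. As arrays of the same number also share the dye, these values cannot decide whether they share a culture. The arrays were taken to share only a number. The block changed no call.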
